A study of Rattus norvegicus with 23 samples.

Results

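The pulmonary vein (PV) and the sinoatrial node region (SA) of the rat heart were compared on 8 microarrays, 4 arrays of PV tissue (PV1 to PV4) and 4 arrays of SA tissue (SA1 to SA4), out of 23 arrays that also covered left atrium (LA), left ventricle (LV), right ventricle (RV) and pulmonary artery (PA). The donors were 12 male rats of the Wistar strain, between 8 and 11 weeks old, of no named transgene, killed under pentobarbital anaesthesia with heparin and otherwise not treated as far as the sources used here say, and each SA sample held the nodal region of 2 rats. The vagus nerve and fat were among the tissue discarded at dissection. SA was taken as the tissue where the right atrium meets the superior vena cava, between the crista terminalis and the septum. By the methods, SA was isolated separately because of the time its isolation takes, so tissue and isolation procedure cannot be told apart. The sources do not say which rat gave which PV or SA sample, so p-values measure the spread between these samples only. A gene entered the comparison when its signal was well above background by the scanner's own mark on all 4 PV arrays or on all 4 SA arrays, which held for 11839 of the 16544 genes named on the array. Levels are log2(normalized signal + 1), a difference is the PV mean minus the SA mean on that scale, and a gene was called when limma's adjusted p (Benjamini-Hochberg over the 11839 genes) was below 0.05.

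The sinoatrial node is the heart's normal pacemaker. Its cells depolarize spontaneously through the hyperpolarization-activated HCN channels and through T-type and L-type calcium channels, under transcription factors such as Shox2, Tbx3, Tbx18 and Isl1. The wall of the pulmonary vein carries a sleeve of atrial-type heart muscle over a layer of vascular smooth muscle and elastic tissue, receives autonomic nerves and lies near cardiac ganglia. The sleeve is known as a source of ectopic beats in atrial fibrillation.

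Between the 2 tissues, 704 genes were called (5.95% of those tested). Of these, 513 were higher in PV (4.33%) and 191 were higher in SA (1.61%). The PV-high genes moved further, with a median size of 0.70 and 125 genes over 1 log2 unit, against 0.41 and 12 genes for those high in SA. The values of the PV and SA arrays did not overlap for 1651 genes (13.9%), among them 604 of the called genes, and the median difference of all genes tested was -0.02. Of the 704 called genes, 698 had the same sign on each of the 3 slides, every slide holding both tissues in equal number. This is a description and no replication, since the genes were called from these same arrays. The calls lean on a spread estimated from all 23 arrays. With only the 8 arrays in the fit, 254 genes were called higher in PV (2.15%) and 66 higher in SA (0.557%), and 267 of the 704 genes stayed called.

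**Figure D1:**
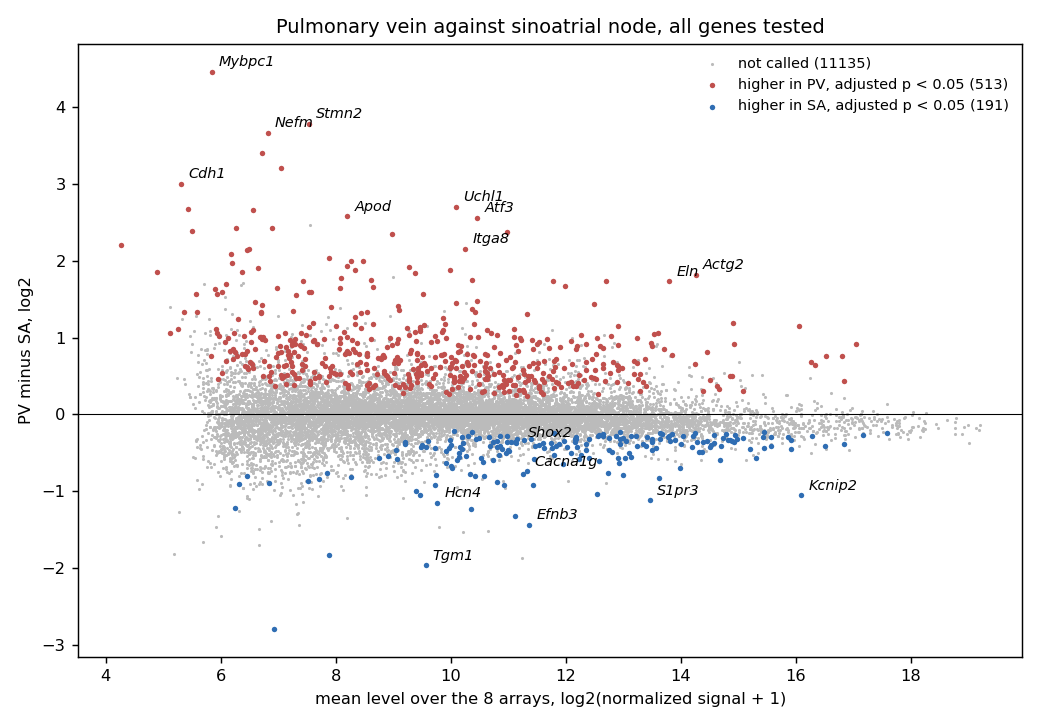
Each point is 1 of the 11839 genes, with its mean level over the 8 arrays on the x axis (log2(normalized signal + 1)) and the PV minus SA difference (log2) on the y axis. The 513 called genes higher in PV (red) reach a difference of 4.46 at Mybpc1, and the 191 called genes higher in SA (blue) include Tgm1 at -1.96.

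Genes of heart muscle were abundant in both tissues. Of 12 sarcomere genes tested none was called by limma (1 at an unadjusted p below 0.05), and their median difference was -0.13. Only 1 of the 12 differences was positive, against 5409 of 11839 for all genes tested. For 4 of the 12 every SA array lay above every PV array, where 13.9% of all genes had no overlap in either direction. Cardiac actin Actc1 was at 19.13 ± 0.05 (SD, n = 4) in PV and 19.26 ± 0.16 in SA. The atrial light chain Myl7 was at 19.09 ± 0.08 and 19.30 ± 0.12, and the atrial hormone gene Nppa at 18.13 ± 0.76 and 18.31 ± 0.22. None of the 15 working atrial genes tested was called (1 unadjusted). Markers of lung epithelium, a tissue that a PV cut could include, were not raised as a list, with 1 of 15 tested genes called (Cdh1, below) and a median of -0.21. The mean level of that list was 6.11 to 6.27 on the PV arrays and 6.25 to 6.47 on the SA arrays. The surfactant gene Sftpb was well above background on 0 of 4 PV arrays and 1 of 4 SA arrays, and Sftpc on 3 of 4 arrays in each tissue at 6.10, 5.40, 6.08 and 4.76 in PV and 5.44, 5.97, 6.65 and 5.98 in SA.

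Hcn4 and Cacna1g, which carry pacemaker currents, were lower in PV. Hcn4, the main pacemaker subunit of the adult node, was at 9.09, 9.82, 8.57 and 9.27 on PV1 to PV4 and at 10.58, 10.27, 10.23 and 10.27 on SA1 to SA4, with all SA arrays above all PV arrays. Its difference was -1.15 ± 0.30 (SE), 2.22-fold lower (limma adjusted p = 0.0271). Cacna1g, the T-type calcium channel Cav3.1, was at 10.98, 11.31, 10.94 and 10.58 in PV and at 12.01, 11.60, 11.58 and 11.58 in SA, a difference of -0.74 ± 0.21 (adjusted p = 0.0379). For both genes a two-sided exact permutation over the 8 arrays gave p = 0.0286, the smallest that 4 against 4 can give. Any gene without overlap has this value, so it restates the lack of overlap. In tissue samples, fewer cells of a type and less RNA per cell cannot be told apart. Of the 9 genes tested from the list of pacemaker channels and connexins, 3 fell, these 2 among them, and none rose, against 1.61% of all genes that fell, and the median of the list was -0.34. The calls sat close to the threshold. None of the 3 held without PV1, PV3, PV4, SA1 or SA3, 1 of them held without SA2 or SA4, and only Hcn4 was called with the 8 arrays alone, while the direction stayed the same throughout.

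The other regions give the scale of these levels. Hcn4 averaged 8.20 in LA, 9.19 in PV, 9.52 in LV, 9.57 in RV and 10.34 in SA, where the ventricular means lay within 1 SD of the PV mean. Cacna1g was at 11.50 ± 0.39 (SD, n = 4) in LA, 11.69 ± 0.21 in SA and 10.95 ± 0.30 in PV. Hcn2 was not called, at 6.33 in PV and 6.39 in SA, and the 95% interval of its difference ran from -0.74 to 0.63. The ventricles carried more of it, at 8.09 in LV.

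**Figure D2:**
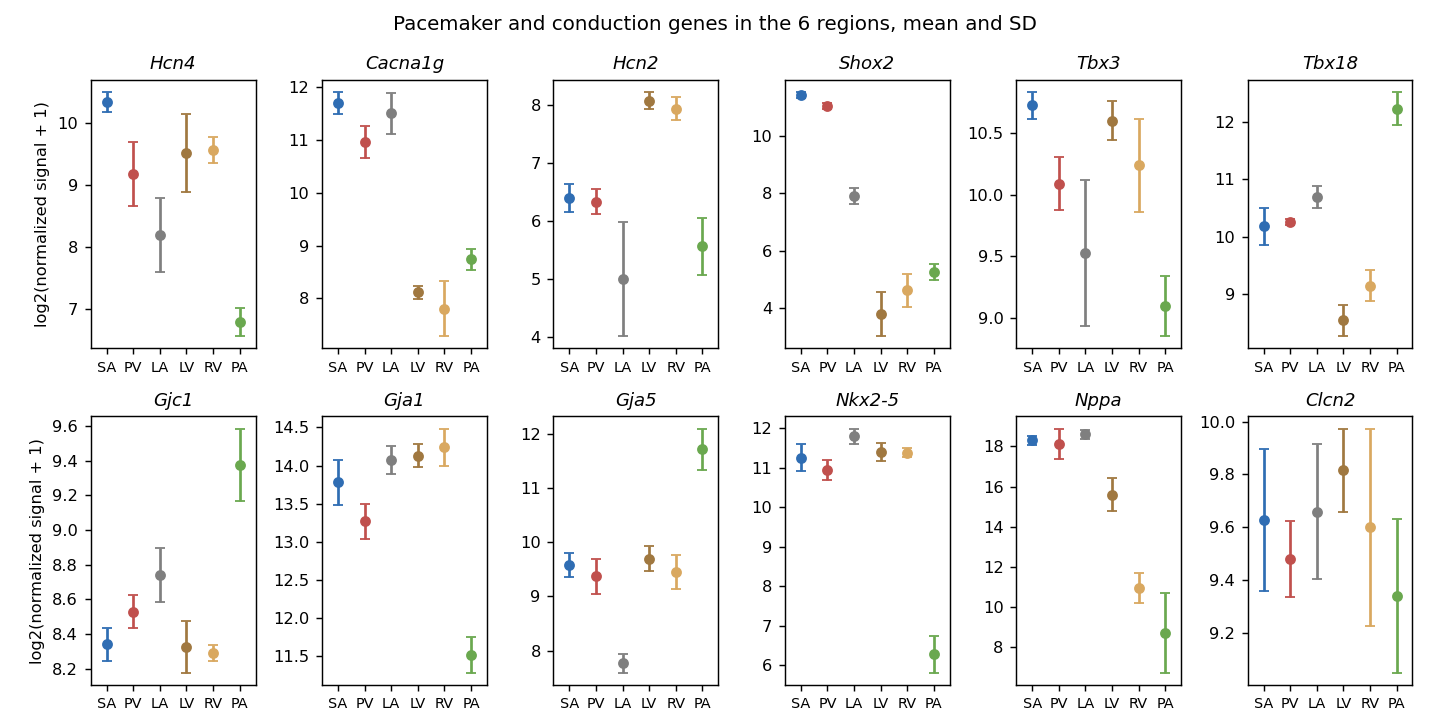
Levels (log2(normalized signal + 1)) of 12 pacemaker and conduction genes in SA, PV, LA, LV, RV and PA, as mean and SD of 4 arrays (3 for RV), each panel on its own scale. Hcn4 and Cacna1g lie lower in PV than in SA, while Shox2 is close in both tissues, at 11.03 and 11.40, and at 7.90 in LA.

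None of the tested transcription factors of the node was called. Shox2, a homeobox factor required for the nodal program, was at 10.91, 11.06, 11 and 11.16 in PV and at 11.34, 11.55, 11.30 and 11.43 in SA. Every SA array lay above every PV array, but the difference of -0.37 ± 0.28 was not called (adjusted p = 0.502, 95% interval -0.95 to 0.21). That SE draws on the spread in all regions of the fit, while the SD of Shox2 was 0.11 in PV and 0.11 in SA. With the 8 arrays alone its limma adjusted p was 0.0696. The PV level was far from that of the neighbouring LA, at 7.90 ± 0.28 (SD, n = 4), and from that of LV, at 3.81 ± 0.76. Tbx3, a repressor of the working muscle program, was at 10.03, 10.10, 10.37 and 9.86 in PV and at 10.64, 10.65, 10.75 and 10.87 in SA, without overlap. Its difference of -0.64 ± 0.22 had an adjusted p of 0.0901, and of 0.0356 with the 8 arrays alone. Tbx18, which marks the head of the node, differed by 0.07 ± 0.17 (95% interval -0.28 to 0.43), and Hoxa2 by -0.31 ± 0.29 (95% interval -0.92 to 0.29). Isl1, a factor of nodal progenitors, was well above background on 1 PV array and 1 SA array and was not tested. Of the 4 tested factors of this list, 1 had an unadjusted p below 0.05. Among 8 other node markers tested, Dkk3, a secreted Wnt regulator, fell by 0.47 (adjusted p = 0.0243) and the other 7 were not called. The call of Dkk3 ended without PV1, PV4, SA2, SA3 or SA4.

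The following connexins and other genes of conduction were not called. Gja1, the connexin 43 gene, was at 13.61, 13.13, 13.11 and 13.21 in PV and 13.97, 14.09, 13.55 and 13.51 in SA, a difference of -0.52 ± 0.16 (adjusted p = 0.0584), which was called in 4 of 24 alternatives, among them the fits without PV1 or SA4. Gjc1, the connexin 45 gene of slow-conducting tissue, differed by 0.19 ± 0.10 (95% interval -0.02 to 0.40), and Gja5, connexin 40, by -0.21 ± 0.19 (95% interval -0.61 to 0.19). Nkx2-5, a factor of working muscle, differed by -0.31 ± 0.20 (95% interval -0.73 to 0.11), and Clcn2, a chloride channel, by -0.15 ± 0.17 (95% interval -0.51 to 0.21). The interval of Nppa was wide, -1.57 to 1.21. Cacna1d was not named on the array.

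Potassium channels of the transient outward current were lower in PV. Kcnd2, the pore subunit Kv4.2, was at 9.35, 9.16, 8.55 and 8.69 in PV and 9.88, 10.05, 10.07 and 9.95 in SA, a difference of -1.05 ± 0.20 (adjusted p = 0.00444). Kcnip2, its accessory subunit, was at 15.88, 15.82, 14.90 and 15.67 in PV and 16.62, 16.82, 16.63 and 16.40 in SA, a difference of -1.05 ± 0.23 (adjusted p = 0.00969). For both genes every SA array lay above every PV array. Kcna2, a delayed rectifier subunit, fell by 0.88 (adjusted p = 0.00801). These were the 3 called genes of 22 potassium channel genes tested (1.61% of all genes fell), none rose, the list's median was -0.31, and 3 or 4 were called whichever array was left out. Kcnip2 was higher still in the ventricles, at 17.61 in LV against 16.62 in SA, and lower in LA, at 13.82. The inward rectifiers of the acetylcholine-activated current, Kcnj3 and Kcnj5, were not called, with differences of -0.38 ± 0.20 and -0.34 ± 0.34.

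Sodium channel subunits moved in both directions. Scn3b, an auxiliary subunit, rose by 1.18 in PV (adjusted p = 0.0215), and Scn2a, a neuronal pore subunit, by 1.11 (adjusted p = 0.0225), although Scn2a was well above background on only 1 SA array. Scn4b, an auxiliary subunit of muscle and nerve, fell by 0.80 (adjusted p = 0.0174). The remaining 7 of 10 tested sodium channel genes were not called. Over all genes 4.33% rose and 1.61% fell, which is also the scale for the counts that follow. Among 16 calcium handling genes, Hrc, a calcium-binding protein of the sarcoplasmic reticulum, was at 15.88, 15.63, 15.60 and 15.65 in PV and 16.09, 16.14, 16.14 and 16.19 in SA and fell by 0.45 (adjusted p = 0.00472), and no other was called. None of the 11 chloride channel genes tested was called (3 unadjusted), and the most abundant, Ano10, differed by 0.18 ± 0.11. Among 15 genes of autonomic receptors and their G proteins, Npy1r, a neuropeptide Y receptor, rose by 1.59 (adjusted p = 0.00954) and Gnai2, an inhibitory G protein, by 0.30 (adjusted p = 0.0237), while the G protein Gnao1 fell by 0.57 (adjusted p = 0.018). The muscarinic receptor Chrm2 was not called, at 11.27 in PV and 11.33 in SA. Calls that ended with 1 array left out were Scn3b (without PV4 or SA1), Scn2a (without PV3, PV4 or SA1), Scn4b (without SA1 or SA3), Gnai2 (without PV4, SA1 or SA3) and Gnao1 (without PV3, PV4, SA1, SA2 or SA3).

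Tgm1 and Efnb3 were among the largest differences in favour of SA. Tgm1, a transglutaminase that crosslinks proteins, was at 8.39, 8.97, 8.32 and 8.65 in PV and 10.67, 10.32, 10.71 and 10.49 in SA, a difference of -1.96 ± 0.23 (adjusted p = 0.000176). Tgm1 was higher in SA than in any other region, with means from 7.17 to 8.58 elsewhere. Efnb3, an ephrin ligand of cell guidance, was at 10.68, 10.99, 10.37 and 10.55 in PV and 12.16, 12.10, 12.09 and 11.99 in SA, a difference of -1.44 ± 0.25 (adjusted p = 0.00198), with higher levels in LV at 13.85. S1pr3, a receptor for sphingosine-1-phosphate, fell by 1.12 in PV (adjusted p = 0.00463), and Panx1, a pannexin channel, fell by 0.92 (adjusted p = 0.0171). The growth factor Fgf16 (-1.22), the tendon and valve factor Scx (-1.03), the cation transporter Slc22a3 (-0.99), the polarity cadherin Celsr1 (-0.92), the ligand Wnt5a (-0.91) and Armh4 (-1.23) were also among the 15 largest, with adjusted p from 0.00198 (Scx) to 0.0242 (Armh4). Of the 191 SA-high genes, 73 (38.2%) had their highest mean of the 6 regions in SA and 97 (50.8%) in a ventricle. Over all genes tested the shares were 8.09% in SA, 20.4% in LV and 14.7% in RV. These counts are a description, since genes chosen as higher in SA cannot be highest in PV. With 1 array left out the calls lost were Armh4 (without PV1, PV3, PV4, SA1 or SA3), Celsr1 (without PV4) and Panx1 (without PV4 or SA2).

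**Figure D3:**
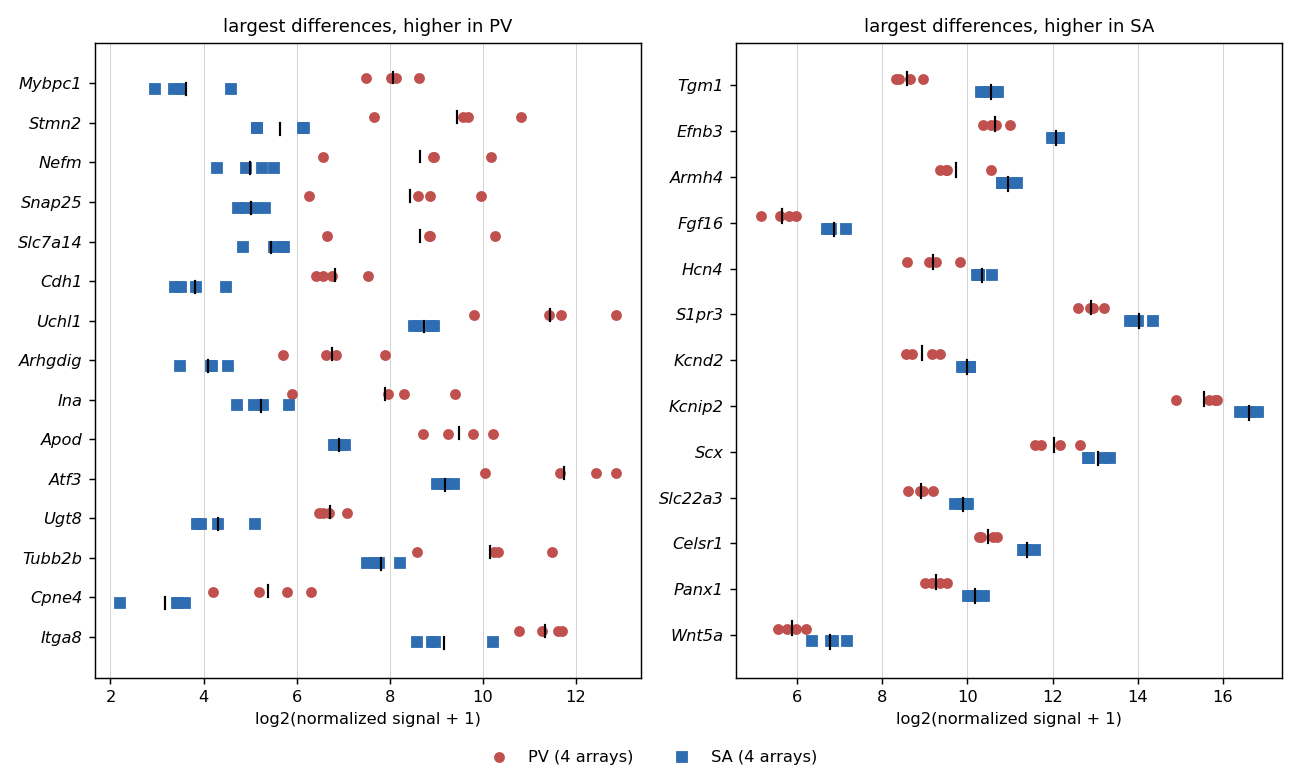
Level on each array (log2(normalized signal + 1)) of called genes with the largest differences (15 higher in PV, 13 higher in SA), among those without overlap and well above background throughout the higher group. Circles are the 4 PV arrays, squares the 4 SA arrays and black lines the group means. The neuronal genes Stmn2, Nefm, Snap25, Slc7a14 and Ina are spread over more than 3 log2 units among the PV arrays, while those of Ugt8 and Itga8 lie within 1.

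The largest difference of all was Mybpc1, the slow skeletal myosin-binding protein C. It was at 8.14, 7.49, 8.64 and 8.03 on PV1 to PV4 and at 3.52, 2.96, 3.36 and 4.60 on SA1 to SA4, where it was not well above background on any array. PV was thus at least 7.73-fold higher, a bound set against the lowest signal above background on each SA array (adjusted p of the measured difference of 4.46 = 1.51e-05). The bound holds for the deposited signals, since the difference was 1.85 under normexp background correction and stayed called. LA carried an intermediate level of 5.94 ± 0.54 (SD, n = 4), and the ventricles and PA means of 2.91 to 3.81. Of 13 tested genes of the skeletal muscle list no other was called, and of its untested members the fast myosins Myh1 and Myh2 were above background on no PV or SA array, Myh4 on 1 PV and 2 SA arrays and the fast-fibre actinin Actn3 on 3 of each. Cdh1, the epithelial cadherin, was at 6.57, 6.41, 6.75 and 7.53 in PV and 3.52, 4.49, 3.39 and 3.84 in SA, with 1 SA array above background, a difference of 3.0 ± 0.39 (adjusted p = 0.000321), or 1.55 with dim arrays at their floor and 0.92 under normexp background correction. Its means in LA, LV, RV and PA were 2.72 to 2.99. Apod, a lipid carrier, was at 10.21, 8.71, 9.25 and 9.79 in PV and 6.84, 7.04, 6.94 and 6.81 in SA, a difference of 2.58 ± 0.34 (adjusted p = 0.000429), and was at 6.40 to 6.66 in the other regions. Cpne4, a copine, was above background on no SA array and at least 1.19-fold higher in PV, a bound close to 1. None of these calls was lost when any 1 array was left out. The call of Cpne4 ended with the 8 arrays alone and under normexp background correction, where its difference was 0.45 (adjusted p = 0.122).

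Several genes of the autonomic neuron list rose in PV, and 4 of them (Stmn2, Nefm, Snap25 and Uchl1) were among the 15 largest differences. Of 25 tested members of the neuron list, 10 rose, 1 fell and 14 were not called, and the median difference was 0.85 against -0.02 for all genes tested. Stmn2, a growth-associated tubulin regulator of neurons, was at 9.58, 9.67, 7.66 and 10.82 in PV and 5.15, 6.13, 6.15 and 5.15 in SA, with 2 SA arrays above background. PV4 was the highest and PV3 the lowest PV array, yet PV3 still lay above every SA array. The difference was 3.79 ± 0.51 (adjusted p = 0.000469), or 3.56 with dim arrays at their floor. Nefm, a neurofilament subunit, was at 8.93, 8.95, 6.56 and 10.18 in PV and 4.91, 5.51, 5.25 and 4.28 in SA, a difference of 3.67 ± 0.55 (adjusted p = 0.000775). Snap25, of the synaptic vesicle fusion machinery, was at 8.86, 8.61, 6.26 and 9.97 in PV and 4.92, 5.32, 5.11 and 4.75 in SA, a difference of 3.40 ± 0.55 (adjusted p = 0.0013). Nefm and Snap25 were each above background on 1 SA array (differences of 3.14 and 2.95 with dim arrays at their floor), and both followed the order of Stmn2 at the extremes, with PV4 highest and PV3 lowest. Uchl1, a neuronal ubiquitin hydrolase measured on all 8 arrays, was at 11.68, 11.43, 9.81 and 12.86 in PV and 8.87, 8.95, 8.51 and 8.63 in SA, a difference of 2.70 ± 0.39 (adjusted p = 0.000678). The light neurofilament Nefl rose by 2.43, Chgb, a protein of secretory granules, by 2.42 and the growth cone protein Gap43 by 1.18 (adjusted p = 0.0162, 0.0125 and 0.00283). Chgb was above background on 2 SA arrays, and its difference was 1.73 with dim arrays at their floor.

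The neuron genes were uneven within PV. The mean level of the 37 list members on the array was 7.44, 7.61, 6.62 and 8.37 on PV1 to PV4 and 6.21 to 6.41 on the SA arrays. The number of genes that rose dropped from 10 to 5 without PV4, and to 5 with the 8 arrays alone or when only genes above background on all 8 arrays were tested. Of the genes of transmitter synthesis and uptake, Dbh, which makes noradrenaline, differed by 1.15 ± 0.55 (adjusted p = 0.242), the noradrenaline transporter Slc6a2 by -0.21 ± 0.29 (adjusted p = 0.754), and Ddc, the aromatic amino acid decarboxylase, fell by 0.63 (adjusted p = 0.0286). The co-transmitter gene Npy rose by 2.37 (adjusted p = 0.0155). Of the cholinergic genes, Chat (choline acetyltransferase) differed by 1.1 ± 0.54 (adjusted p = 0.257) and Slc18a3 (the vesicular acetylcholine transporter) by 0.85 ± 0.27 (adjusted p = 0.0664). Slc5a7, the choline transporter, was above background on 3 PV arrays and was not tested, at 7.93, 7.85, 5.13 and 9.15 in PV and 3.60, 3.38, 4.48 and 6.03 in SA. Other genes known from neurons lie among the 15 largest differences but outside the list. Ina, a neurofilament-type protein, rose by 2.66, Tubb2b, a neuronal tubulin, by 2.35, and Slc7a14, of a transporter family, by 3.21 (adjusted p = 0.0145, 0.00101 and 0.00242), as did Arhgdig, a regulator of small GTPases, by 2.68 (adjusted p = 0.00108). With dim arrays at their floor these differences were 2.42 for Ina, 2.99 for Slc7a14 and 1.5 for Arhgdig, and under normexp background correction 1.39, 1.87 and 0.86. Among these, the calls of Npy (without PV4 or SA3), Ddc (without PV1, PV3, PV4, SA1, SA2 or SA3), Nefl (without PV4), Chgb (without PV4 or SA1) and Ina (without PV4) did not hold. The call of Snap25 ended when scanner signals were scaled to the 90th percentile (adjusted p = 0.176).

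Several Schwann cell genes also rose in PV. Of 16 tested, 9 rose and none fell, with a median of 0.88. S100b, a glial calcium-binding protein, was at 10.42, 10.07, 10.14 and 10.57 in PV and 8.77, 8.84, 8.46 and 8.85 in SA, a difference of 1.57 ± 0.29 (adjusted p = 0.00343). The PV arrays of S100b lay above all SA arrays and within 1 log2 unit of each other, a narrower spread than those of Stmn2, Nefm, Snap25 and Uchl1. Ngfr, the low-affinity neurotrophin receptor, was at 8.34, 7.89, 7.66 and 9.30 in PV and 6.33, 6.78, 6.42 and 6.70 in SA and rose by 1.74 (adjusted p = 0.00278), Cdh19, an adhesion protein above background on 1 SA array, by 1.69 (adjusted p = 0.00954) and the glial factor Sox10 by 0.64 (adjusted p = 0.0323). Ugt8, an enzyme of myelin lipid synthesis outside the list, rose by 2.39 (adjusted p = 0.00221), or 1.29 with dim arrays at their floor and 0.70 under normexp background correction, as 1 SA array was above background. The mean level of the list was 8.12 to 8.58 on the PV arrays and 7.56 to 7.74 on the SA arrays. The count was 6 to 8 with 1 array left out, 6 being that without PV3, PV4, SA1 or SA3, and 10 with the 8 arrays alone. The call of Sox10 ended without PV1, PV3, PV4, SA1, SA2 or SA3.

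**Figure D4:**
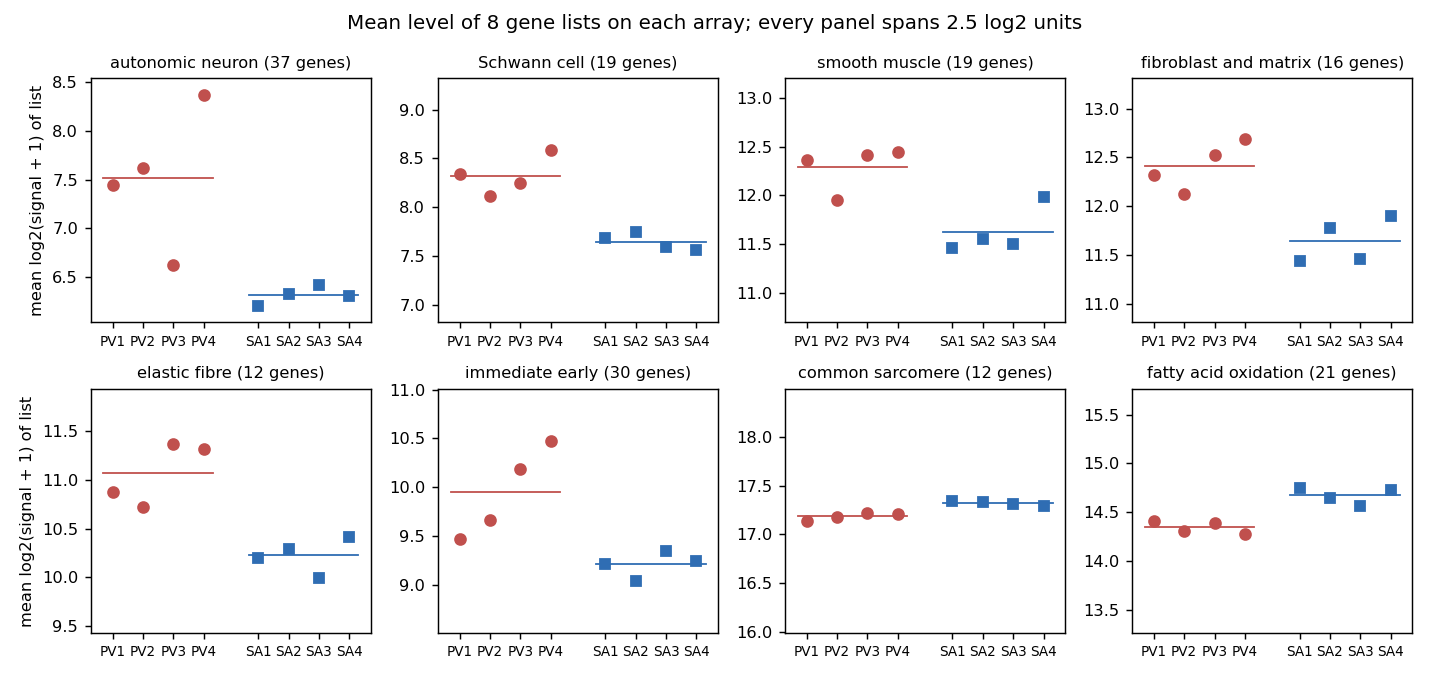
Mean level of the members on the array (mean log2(normalized signal + 1)) of 8 gene lists on PV1 to PV4 (circles) and SA1 to SA4 (squares), with lines at the group means and every panel spanning the same range. The neuron list lies between 6.62 and 8.37 on the PV arrays against 6.21 to 6.41 on the SA arrays. The sarcomere list lies between 17.13 and 17.21 on the PV arrays and slightly higher, between 17.29 and 17.34, on the SA arrays.

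Several genes of the vessel wall rose in PV. Of 19 smooth muscle genes tested, 10 rose, none fell and 9 were not called, with a median of 0.66. Actg2, the enteric-type smooth muscle actin, was at 15.20, 14.81, 15.24 and 15.42 in PV and 13.09, 12.95, 12.95 and 14.41 in SA. The lowest PV array (PV2) was close to the highest SA array (SA4), and the difference was 1.82 ± 0.39 (adjusted p = 0.00919). Itga8, an integrin of contractile cells, was at 11.27, 10.77, 11.69 and 11.60 in PV and 8.59, 8.98, 8.91 and 10.22 in SA, a difference of 2.16 ± 0.36 (adjusted p = 0.00162), and Cnn1, a calponin, rose by 1.88 (adjusted p = 0.00459). Acta2 rose by 0.66 (adjusted p = 0.00463), Myh11, the smooth muscle myosin heavy chain, by 0.93 (adjusted p = 0.0155) and Ramp1, a subunit of the receptor for calcitonin gene-related peptide, by 1.44 (adjusted p = 0.000814). SA4 stood nearest to PV, with a mean list level of 11.98 against 11.46, 11.55 and 11.50 on SA1 to SA3 and 11.95 to 12.44 in PV. Without PV4 or SA1, 6 of the list were called. The call of Myh11 ended without PV4 or SA1. All 6 of these genes had higher means in PA, where Actg2 averaged 17.99 and Itga8 16.38.

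Several elastic fibre and matrix genes rose in PV. Of 12 elastic fibre genes tested, 8 rose and none fell, with a median of 0.83. Elastin, Eln, was at 14.28, 13.58, 15.56 and 15.25 in PV and 12.85, 13.12, 12.29 and 13.48 in SA, a difference of 1.74 ± 0.36 (adjusted p = 0.00783). Ltbp2, a latent TGF-beta binding protein of microfibrils, was at 8.26, 8.37, 10.12 and 10.33 in PV and 7.09, 7.16, 7.19 and 7.66 in SA, a difference of 1.99 ± 0.45 (adjusted p = 0.0135). For both, PV3 and PV4 were above PV1 and PV2, while the SA arrays stayed below all of them. Mfap4 rose by 0.98 and Loxl1, a crosslinking enzyme, by 0.95 (adjusted p = 0.00517 and 0.0159). The count fell to 5 without PV3, PV4 or SA3 and with the 8 arrays alone. Of 16 fibroblast and matrix genes tested, 8 rose, none fell and all 16 differences were positive, with a median of 0.70. Col8a1, a short-chain collagen of vessels, rose by 1.85 (adjusted p = 0.00593), Lum, a collagen-binding proteoglycan, by 1.0 (adjusted p = 0.0155), Col14a1 by 0.96 (adjusted p = 0.00459) and Col3a1 by 0.77 (adjusted p = 0.0297). That count was 3 without PV3 and with the 8 arrays alone, and 2 without PV4, SA1 or SA3. Lost when an array was left out were the calls of Ltbp2 (without PV4), Loxl1 (without PV3 or SA3), Lum (without PV4, SA1 or SA3) and Col3a1 (without PV3, PV4, SA1 or SA3). Over the 513 PV-high genes, 378 (73.7%) had their highest mean of the 6 regions in PA, against 38.7% of all genes tested. In PV it was 87 (17%), against 5%. These shares are a description, since genes chosen as higher in PV cannot be highest in SA.

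Some immediate early genes, which are switched on within minutes by stretch, injury or firing, rose in PV. SA was isolated separately from the other tissues, and the part of handling in these differences was not tested. Of 28 tested, 6 rose, none fell and 22 were not called, and the median difference was 0.63. Atf3, a stress-induced transcription factor, was at 12.42, 10.04, 12.87 and 11.65 in PV and 9.38, 9.01, 9.18 and 9.15 in SA, a difference of 2.56 ± 0.49 (adjusted p = 0.00444). Nr4a1, an orphan nuclear receptor, was at 11.50, 12.29, 13.42 and 13.37 in PV and 11, 10.73, 11.39 and 10.50 in SA, a difference of 1.74 ± 0.44 (adjusted p = 0.0243). For Atf3 PV2 was the lowest PV array and for Nr4a1 PV1 was, and for both genes all PV arrays lay above all SA arrays. Fosb, a partner of Jun that was above background on 2 SA arrays, rose by 2.15 (adjusted p = 0.0145), and Ccn2, a matricellular growth factor, was at 12.37, 13.16, 12.24 and 13.51 in PV and 11.08, 11.23, 11.35 and 10.93 in SA and rose by 1.67 (adjusted p = 0.000708). Nr4a2, a relative of Nr4a1, rose by 0.81 (adjusted p = 0.00794). Fos itself averaged 9.90 ± 1.76 (SD, n = 4) in PV and 8.10 ± 0.66 in SA and was not called (adjusted p = 0.173). The mean list level was 9.47, 9.66, 10.18 and 10.47 on PV1 to PV4 and 9.04 to 9.34 on the SA arrays. The count was 11 without PV1, 3 without PV4 and 2 with the 8 arrays alone. Leaving out 1 array ended the calls of Nr4a1 (without PV3, PV4, SA1, SA2 or SA4) and Fosb (without PV4). None of the 11 heat shock genes tested was called (5 unadjusted).

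The upstream sequences of the immediate early genes are shown for 3 called members that hold a named motif less than 100 bases before the start of transcription. RefSeq promoter sequences (build GRCr8) were found for 4 of the 6 called genes, and the 250 bases before the start were searched on both strands for TGACG, the core of the cyclic AMP response element, and for TATAAA. The sequence of Nr4a1 lies on the plus strand at chr7:134259888-134260137 those of Nr4a2 and Ccn2 on the minus strand at chr3:62104888-62105137 and chr1:22624615-22624864. Capitals mark the matches, and a TGACG on the other strand reads CGTCA.
Nr4a1: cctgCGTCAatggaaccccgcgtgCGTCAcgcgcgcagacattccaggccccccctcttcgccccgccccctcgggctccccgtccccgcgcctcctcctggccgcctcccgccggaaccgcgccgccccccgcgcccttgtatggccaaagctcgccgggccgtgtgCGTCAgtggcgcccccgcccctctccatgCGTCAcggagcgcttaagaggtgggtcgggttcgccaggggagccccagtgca
Nr4a2: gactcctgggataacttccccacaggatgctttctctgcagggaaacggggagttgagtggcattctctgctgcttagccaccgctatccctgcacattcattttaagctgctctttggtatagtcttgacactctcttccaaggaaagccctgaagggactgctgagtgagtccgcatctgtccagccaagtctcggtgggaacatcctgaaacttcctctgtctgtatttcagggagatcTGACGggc
Ccn2: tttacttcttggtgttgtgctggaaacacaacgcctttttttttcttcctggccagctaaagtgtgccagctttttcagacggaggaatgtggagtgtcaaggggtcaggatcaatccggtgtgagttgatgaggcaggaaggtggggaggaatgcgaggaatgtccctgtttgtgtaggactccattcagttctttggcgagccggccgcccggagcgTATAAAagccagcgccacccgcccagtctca
Nr4a1 held 4 matches to TGACG, all on the other strand and the nearest 53 bases before the start, Nr4a2 held 1, 8 bases before it, and Ccn2 held 1 TATAAA, starting 31 bases before the start. TGACG was present in 2 of the 4 sequences and in 18.2% of 33469 rat promoter sequences of that length, and TATAAA in 2 of 4 and in 12.9%. The CArG box, the element bound by serum response factor in smooth muscle and immediate early genes, was searched by its consensus and was in 0 of these 4 and 0 of the 7 sequences found for the 10 called smooth muscle genes, against 1.5% of all. A match is a description of the letters and not a site in use.

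A minority of mitochondrial fuel genes fell in PV, 4 of 21 for fatty acid oxidation and 3 of 38 for oxidative phosphorylation, where 1.61% of all genes tested were called in that direction. All 21 fatty acid oxidation genes had negative differences, with a median of -0.37. Acadm, Acads and Acadvl, dehydrogenases of medium, short and very long chains, fell with differences of -0.45, -0.44 and -0.42, and Cpt2, of the carnitine shuttle, with -0.44 (adjusted p = 0.0313, 0.0125, 0.0438 and 0.0174). Acads was at 15.48, 14.99, 15.26 and 15.20 in PV and 15.67, 15.72, 15.62 and 15.69 in SA. All 38 oxidative phosphorylation genes were also negative, with a median of -0.18, and those that fell had differences of -0.28 for Sdhd, -0.27 for Cox7b and -0.25 for Ndufa2 (adjusted p = 0.0337, 0.0289 and 0.0427). These calls ended under quantile normalization, with 0 called in either list, and under the fit of the 8 arrays alone. Without PV4 or SA1, 1 fatty acid oxidation gene and 0 oxidative phosphorylation genes were called. Calls that ended with 1 array left out were Acadm (without PV2, PV3, PV4, SA1, SA2 or SA3), Acadvl (without PV1, PV2, PV4, SA1, SA2 or SA4), Cpt2 (without PV3, PV4 or SA1), Sdhd (without PV2, PV4, SA1, SA2 or SA3), Cox7b (without PV1, PV4, SA1, SA2, SA3 or SA4) and Ndufa2 (without PV1, PV2, PV3, PV4, SA1, SA2 or SA3).

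Other transcription factors and signals differed in few members. Of 26 factors of heart and left-right patterning, Foxc2, a factor of vessels and valves, rose by 0.96 (adjusted p = 0.00847) and Nr2f1, an atrial nuclear receptor, by 0.40 (adjusted p = 0.038), and 1 other factor fell. Of the probes for Nr2f1 that were above background, 1 had the opposite sign. None of 8 Hox genes was called (0 unadjusted), and of 19 BMP, Wnt and retinoic acid genes Wnt5a and Dkk3 fell and none rose. Of the ventricular list Kcnip2 and Fhl2, a scaffold protein of the sarcomere, fell, the difference of Fhl2 being -0.58 (adjusted p = 0.0266), and 4 were not called. With 1 array left out the calls lost were Nr2f1 (without PV1, PV2, PV4, SA1, SA2, SA3 or SA4) and Fhl2 (without PV3, PV4, SA1 or SA3). The ventricular light chain Myl2 was at 15.95 in PV and 15.70 in SA.

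Lists of other cell types that the dissections could hold showed few calls. One gene each rose among 20 endothelial genes (Lyve1, a lymphatic receptor, by 0.69), 8 cartilage genes (Comp, a matrix protein, by 0.66) and 21 adipocyte genes (Lep, leptin, by 1.97, or 1.56 with dim arrays at their floor, as 1 SA array was above background), with adjusted p of 0.0337, 0.0419 and 0.0239. Brown fat's Ucp1 averaged 10.31 ± 2.38 (SD, n = 4) in PV and 12.18 ± 1.1 in SA (adjusted p = 0.26), a spread wider than the difference. Cd3d, a T cell receptor chain, fell by 0.45 among 9 lymphocyte genes (adjusted p = 0.0379). A second Lep probe, above background on 2 PV arrays and 1 SA array, differed by 0.08. Among these, the calls of Lyve1 (without PV2, PV4, SA1, SA2 or SA4), Comp (without PV1, PV3, PV4, SA1, SA2, SA3 or SA4), Lep (without PV1, PV4, SA1 or SA4) and Cd3d (without PV2, PV4, SA1, SA2 or SA3) did not hold. No gene was called among 12 macrophage, 11 mast cell and granulocyte, 11 mesothelial, 8 erythroid and 9 cell cycle genes tested (1, 0, 1, 0 and 3 unadjusted, in that order). The most abundant members of these lists differed by -0.13 ± 0.22 (Lyz2, macrophage lysozyme), 0.14 ± 0.16 (Kit, the mast cell growth factor receptor), 0.20 ± 0.12 (Cldn15, a claudin), -0.45 ± 0.41 (Hba-a1, alpha globin) and 0.27 ± 0.15 (Aurka, a mitotic kinase), and in heat shock by -0.25 ± 0.11 (Cryab, a small chaperone). The part of nerve, vessel wall and fat left on the PV samples in the differences above was not tested. Read against the 4.33% of all genes, PV-high calls made up 10 of 25, 9 of 16, 10 of 19, 8 of 12, 8 of 16 and 6 of 28 in the neuron, Schwann cell, smooth muscle, elastic fibre, matrix and immediate early lists.

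**Figure D5:**
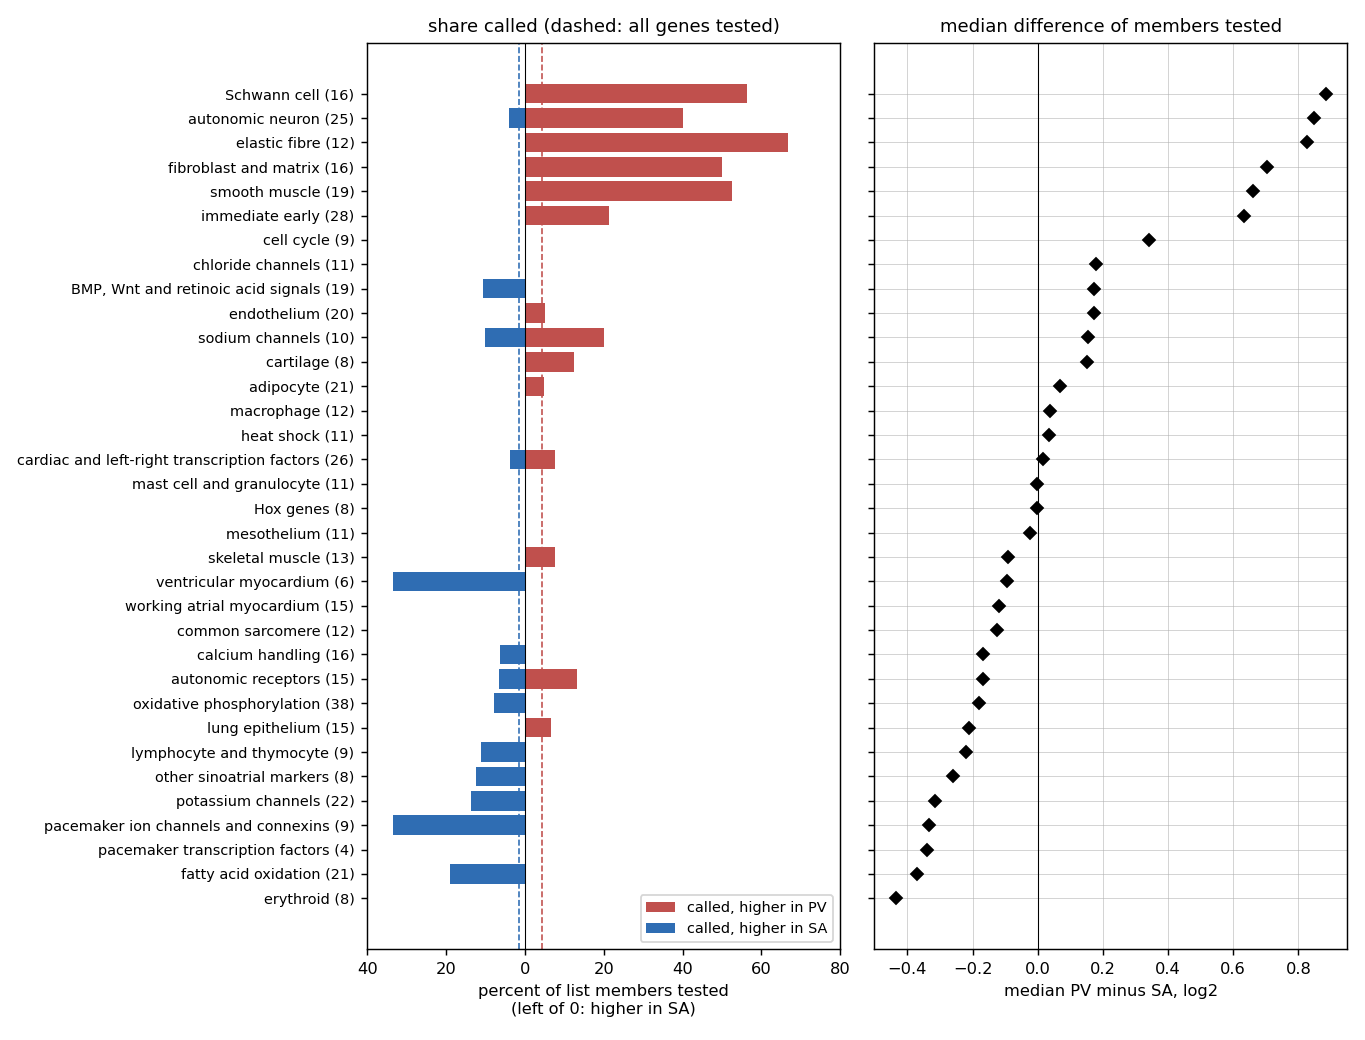
For 34 gene lists (number tested in brackets), the left panel gives the percent of tested members called higher in PV (right of 0) or higher in SA (left of 0), with dashed lines at the 4.33% and 1.61% of all genes tested. The right panel gives the median PV minus SA difference (log2), which runs from -0.44 for the erythroid list to 0.88 for the Schwann cell list.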

How the data were processed

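RNA from 4 PV and 4 SA samples was hybridized to single-colour Agilent SurePrint G3 rat arrays within a series of 23 arrays of 6 heart regions. Per the methods and the file headers, the authors read spot intensities with Agilent Feature Extraction 11.0.1.1, subtracted the background, detrended each array and scaled it to a common 90th percentile. The deposited intensities (linear scale) were used here, since the 90th percentile was 3990 to 3991 on the 8 arrays. Scanner flags marked spots well above background, and the deposited scanner intensities served for alternatives. Such scaling equates the 90th percentile only, so a shift shared by all genes would not show. The medians still ran from 103.3 to 116.8 in PV and from 107.1 to 128.1 in SA. The scanner floor limits ratios of dim genes.

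Of 45596 probes, 156 with a missing value were left out and 21047 had a gene symbol in the platform annotation given, for 16544 genes. On each array a gene took its highest probe (3638 genes had several). PV was compared with SA in 1 limma fit (limma 3.58.1, R 4.3.3) of all 23 arrays and 6 regions on log2(intensity + 1), with Benjamini-Hochberg adjustment over 11839 genes and a threshold of 0.05. On simulated data for this comparison, 40.5%, 81.0% and 99.5% of 200 changed genes among 11839 were recovered at log2 changes of 0.5, 1 and 2. No spot was saturated, the scanner marked 59.8% to 76.2% of probes as well above background in PV and 60.1% to 76.0% in SA, and precision is limited by the number of arrays. PV and SA arrays with the same number shared a slide and a row, but their deviations from the group means correlated at -0.18, -0.03, 0.33 and -0.23, so they were not treated as pairs.

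The text names the 15 largest called genes in each direction (without overlap and above background throughout the higher group), a set of 16 pacemaker and conduction genes, up to 4 called members in each direction of each of 34 gene lists and, for a list with no call, its most abundant member. A further 20 list members were chosen after their values were seen. The genes and lists were chosen with earlier results of these data known. Alternatives covered scaling, background correction, pseudocount, filter, probe choice, samples in the fit, blocks and each array left out. Probes with no symbol in that annotation were not used here, and some genes the rule selects are not reported here. Promoter sequences are those of RefSeq (GRCr8).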

Additional observations from a re-analysis of the deposited data

Results flagged for a closer look

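Among 216 groups of 4 arrays (108 genes described above, in PV and in SA), 19 had 1 array that stood apart from the other three by Dixon's criterion, where chance flags about 5%. SA1 stood high for Hcn4 (10.58 against 10.23 to 10.27 on the other SA arrays) and for Cacna1g (12.01 against 11.58 to 11.60). SA1 stood low for Scn3b (7.46 against 7.82 to 7.87), Cox7b (17.25 against 17.31 to 17.32) and Chrm2 (11.05 against 11.40 to 11.45). SA2 stood low for Cpne4 (2.20 against 3.42 to 3.60) and high for Myl7 (19.47 against 19.22 to 19.26). SA3 stood low for Loxl1 (8.72 against 9.33 to 9.35) and high for Fosb (5.65 against 5.34 to 5.35). SA4 stood high for Actg2 (14.41 against 12.95 to 13.09), Col14a1 (9.19 against 8.82 to 8.84) and Celsr1 (11.59 against 11.31 to 11.34). PV1 stood high for Hrc (15.88 against 15.60 to 15.65) and low for Cldn15 (14.39 against 14.83 to 14.90). PV2 stood high for Armh4 (10.56 against 9.35 to 9.51) and low for Scn4b (9.41 against 10.21 to 10.25). PV3 stood low for Hoxa2 (8.39 against 8.75 to 8.78) and high for Myl2 (16.27 against 15.82 to 15.85). PV4 stood high for Cryab (19.01 against 18.66 to 18.72).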

How the results depend on the processing

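No called difference of the genes described changed sign under any alternative run. The counts moved with the arrays in the fit and, among the 8 arrays, with the replicate block. With only the 8 arrays, 320 genes were called, 254 higher in PV and 66 higher in SA. With slide as a block in that fit, a setting added after seeing the data, the counts were 240, 198 and 42. With the replicate block in the fit of the 8 arrays they were 61, 56 and 5, of which 55 were among the 704, and in the fit of all 23 arrays 659, 475 and 184. Of the correlations of same-numbered arrays given with the processing, 1 of 4 PV arrays (PV3) correlated best with its own number. Normexp background correction gave 462 genes, 316 of them higher in PV, and quantile normalization 127 higher in SA. Leaving out 1 array gave 263 to 695 genes, 204 to 511 higher in PV and 59 to 184 higher in SA. The total fell by more than 1.5 times without PV4 (263), SA1 (365), SA3 (387) or SA2 (466). The share higher in PV was 72.9%, and 68.4% to 77.9% under the scaling and background alternatives. Of the 108 genes described, 34 lost their call and 1 (Tbx3) gained it with the 8 arrays alone, 45 lost it with slide as a block in that fit and 65 with the replicate block there, among them Stmn2, Nefm, Snap25, Uchl1, Hcn4, Kcnd2, Kcnip2 and Atf3. Calls were gained by Gja1 in 4 alternatives and by Chat, Slc18a3 and Fos in 1 each. Besides Snap25, Cpne4 and the mitochondrial genes described above, calls ended under another scaling, background correction, filter or probe choice for Cacna1g, Scn3b, Scn2a, Gnai2, Nr4a2, Nr2f1, Lyve1, Comp, Lep and Cd3d. The cause of these shifts was not tested. Under normexp background correction the differences were also over 1.5 times smaller in fold for Stmn2 (2.39), Nefm (2.01), Snap25 (1.75), Apod (1.88), Nefl (1.5), Chgb (1.04), Fosb (1.07), Ngfr (1.07), Npy1r (0.94), Cdh19 (0.68), Lep (0.82) and Scn2a (0.35). Differences of genes near background depend on how dim arrays are treated, and Mybpc1 and Cpne4 had no SA array well above it.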

Other observations

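Several members of the lists could not be tested because no tissue had them above background on all 4 arrays, and some of these differed by array. Bmp10, a growth factor of atrial muscle, was at 3.43, 10.83, 5.47 and 3.04 on PV1 to PV4 and 8.45, 7.36, 5.34 and 5.36 on SA1 to SA4, so that PV2 lay above all SA arrays and PV1 and PV4 below all of them. The untested members of the neuron list did not share 1 order among the PV arrays. Syt4, a synaptotagmin, was at 7.49, 7.35, 4.64 and 8.74 in PV and 3.52, 3.20, 3.55 and 3.56 in SA. Chrna3, a nicotinic receptor subunit of ganglia, was at 5.86, 6.32, 4.10 and 7.63 in PV and 3.49, 2.74, 3.35 and 3.62 in SA, and the RNA-binding protein Elavl4 at 6.35, 6.68, 3.79 and 7.70 in PV and 3.57, 2.17, 3.35 and 3.46 in SA. These 3 genes were highest on PV4 and lowest on PV3, as Stmn2 was. Vip, a neuropeptide, was at 5.67, 6.87, 5.68 and 6.38 in PV and 5.66, 5.97, 5.92 and 5.61 in SA, highest on PV2 and lowest on PV1.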
